A study of Mus musculus with 24 samples.

Results

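The condition by time interaction asks whether the difference between circadian disrupted and normal pancreas changed between an early and a late time point. It was estimated as the late difference minus the early one, averaged over males and females, and it used all 24 of the 24 mice of the series. For each of 14000 genes that passed a filter on low counts, out of 51912 in the table, a positive interaction means that the difference between disrupted and normal mice moved upward from the early to the late time. The genes described are those outside the core clock whose condition effect reversed or faded.

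All mice were C57Bl/6J, and RNA was measured from whole pancreas by RNA-seq. The 8 groups of 3 mice were late disrupted males (CDM_9, day 9) and females (CDF_8, day 8), late normal males (NCM_9, day 9) and females (NCF_8, day 8), early disrupted males (CDM_1) and females (CDF_1), and early normal males (NCM_1) and females (NCF_1), both on day 1. The labelled zeitgeber times were 200 hours for late males, 176 hours for late females and 8 hours for early mice. The series title speaks of re-entrainment, and how the rhythm was disrupted is not given in the sources used here. Late males and late females differ by a day as well as by sex, so at the late time sex and day cannot be told apart. Each condition and time held 6 mice. The p-values measure the spread between these mice.

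The circadian clock is a feedback loop in which BMAL1 and CLOCK bind E-box sequences and switch on their own repressors, the Per and Cry genes, together with many output genes. Most tissues, the pancreas included, carry such a clock, and clocks of different tissues take different times to follow a shifted schedule of light or feeding. The pancreas is made mostly of acinar cells, which secrete digestive enzymes and carry a large endoplasmic reticulum for that purpose, with smaller numbers of duct, islet, stromal and immune cells.

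Library totals ran between 31325562 and 62390463 expected counts, and the 35 acinar enzyme genes together summed to between 705000 and 856000 CPM (counts scaled to a common library size), so acinar RNA dominated every library. The lymphocyte marker list (17 of 22 genes tested) summed to between 6.65 and 110 CPM in late disrupted, 3.11 and 20 CPM in late normal, 29.5 and 233 CPM in early disrupted and 9.54 and 99.9 CPM in early normal mice. By the mean log2 level of its genes, centred on all mice, the list stood highest in a disrupted female at each time, late replicate 1 (2.17) and early replicate 1 (3.51), whereas by summed CPM late disrupted male replicate 1 (110 CPM) stood above that late female (88.7 CPM). No gene of that list was called for the interaction. Without these 2 mice, 665 genes were called for the interaction against 668 with them, while the late condition effect was called for 311 genes against 189. In whole tissue, fewer cells of a type and less RNA per cell cannot be told apart.

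Of the 14000 genes, 668 (4.77%) passed an adjusted p of 0.05 for the interaction in edgeR's quasi-likelihood test with Benjamini-Hochberg adjustment, 324 upward (2.31%) and 344 downward (2.46%). The late condition effect was called for 189 genes (1.35%), 80 higher in disrupted mice (0.571%) and 109 lower (0.779%). The early one was called for 639 (4.56%), 293 higher (2.09%) and 346 lower (2.47%). The calls nearest to the threshold on the inside were Sesn1 (adjusted p = 0.0499) and Pgk1 (adjusted p = 0.0499), and nearest on the outside Cldn12 and Tulp4, both at an adjusted p of 0.05. The core clock list supplied 16 of the calls, from 19 genes tested, and 652 lay outside it, 312 upward and 340 downward.

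The late and early differences come from separate mice, so their signs can be set against each other directly. Among the 622 genes outside the core clock called early, 407 (65.4%) had a late difference of the opposite sign, against 51.4% of all genes tested. Of 288 genes that were higher in disrupted mice early, 218 were on the lower side late, and of 334 that were lower early, 189 were on the higher side late. The share was thus larger among genes higher early, and the share over all genes was not split by direction. The median ratio of late to early difference was -0.23. Of those 622 genes, 54 were also called late in the opposite direction and 1 in the same direction. Looking back from the late time, 140 of 180 genes called late (77.8%) had an early difference of the opposite sign.

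The 652 genes fell into 5 classes, set by their measured late and early effects and given here as a description. In 54 genes (8.28%) both effects were called with opposite signs, and these are termed reversed. Another 193 (29.6%) were called early while the late difference was not called and was at most 0.5 times the early one, and these are termed faded. A further 108 (16.6%) were called early and had swung past 0 to a late difference of more than 0.5 times the early size that was not itself called. Only the late effect was called in 78 genes (12.0%), and neither effect alone was called in 219 (33.6%). None of the 652 was called at both times with the same sign. Without late disrupted female replicate 3 the reversed class held 26 genes, without late disrupted male replicate 1 it held 33, and without late normal male replicate 3 or late normal female replicate 2 it held 35, while all 54 genes kept their interaction call in each of those fits. With lymphocyte and adipocyte scores as covariates it held 32, and again all 54 interaction calls were kept. The boundary between the faded genes and those that swung past 0 ran between Kif13b, at log2 -0.27 late and 0.55 early, and Bcat2, at log2 0.15 late and -0.30 early.

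**Figure D1:**
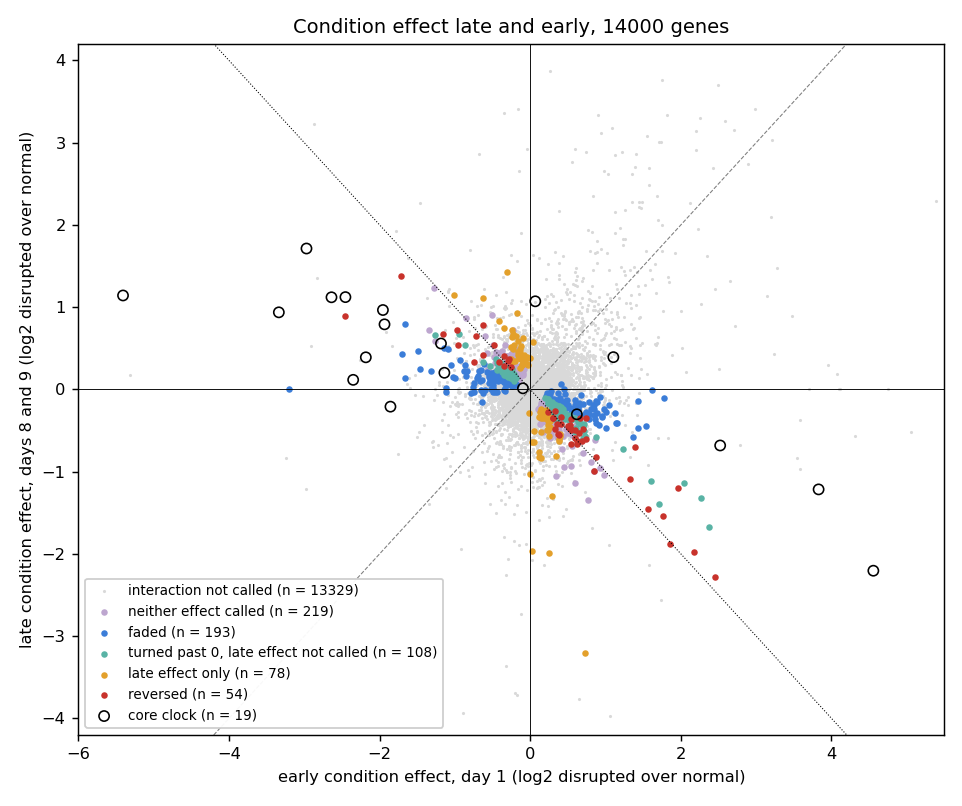
Late condition effect (vertical axis, log2 disrupted over normal, days 8 and 9) against early condition effect (horizontal axis, log2 disrupted over normal, day 1), 1 point per gene, coloured by class, with core clock genes as open circles; 16 genes lie outside the axes. The 54 reversed genes sit in the upper left and lower right of the plot near the dotted line of equal and opposite effects, and the 193 faded genes lie along the horizontal line at 0.

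The late against early difference was called for 1948 of the 14000 genes within disrupted mice (13.9%) and for 118 within normal mice (0.843%). All 54 reversed genes were called within disrupted mice and 12 of the 54 within normal mice. Calls were more frequent within disrupted mice over all genes too, and the class was chosen on these same values, so nothing is read from its counts. The median size of that change was log2 0.88 in disrupted and 0.24 in normal mice, and it was larger in disrupted mice for 50 of the 54. In 48 of the 54 the late disrupted mean lay beyond both normal means, on the far side from the early disrupted mean. The median late difference was log2 0.51 in size, against 0.61 early, and 38 of the 54 genes were lower in disrupted mice late and higher early.

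Separation by mouse was wide for many of them. The 6 disrupted and 6 normal mice did not overlap late in 22 of the 54 and early in 43 of the 54, against 1.04% and 2.31% of all genes. They did not overlap at either time, with opposite directions, in 20 of the 54, against 0.207% of all genes. The classes were chosen on these same effects, so nothing is read from those shares.

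The promoters of 3 named reversed genes are printed because they hold the E-box or D-box, the sequences through which clock factors and PAR bZIP factors act, close to a start site. Other reversed genes with an E-box, listed below, fall outside the naming rule and are not printed. Each is the 250 bases before a RefSeq start on GRCm38.p6, read 5′ to 3′ on the gene's strand, with E-boxes (CACGTG) and D-boxes (TTATGTAA or TTACGTAA, on either strand) in capitals. Coq10b lies on the plus strand at chr1:55052520-55052769, Aqp8 on the plus strand at chr7:123462044-123462293 and Tspan4 on the plus strand at chr7:141476130-141476379. The Tspan4 window lies inside the gene as annotated by GENCODE (chr7:141475240-141493427). The E-box starts at base -78 in Coq10b, at -75 in Aqp8 and at -51 in Tspan4, counted from the start site, and the D-box of Coq10b, on the opposite strand, at -162.
Coq10b: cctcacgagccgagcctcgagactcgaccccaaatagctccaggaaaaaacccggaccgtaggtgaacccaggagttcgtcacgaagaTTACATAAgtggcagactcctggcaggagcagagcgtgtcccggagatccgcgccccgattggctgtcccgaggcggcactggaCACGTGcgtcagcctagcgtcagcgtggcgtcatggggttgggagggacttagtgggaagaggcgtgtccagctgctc
Aqp8: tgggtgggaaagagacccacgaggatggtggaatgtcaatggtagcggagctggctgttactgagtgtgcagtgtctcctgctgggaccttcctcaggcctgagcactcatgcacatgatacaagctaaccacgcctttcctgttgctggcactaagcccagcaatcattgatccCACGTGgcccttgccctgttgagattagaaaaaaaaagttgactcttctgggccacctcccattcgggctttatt
Tspan4: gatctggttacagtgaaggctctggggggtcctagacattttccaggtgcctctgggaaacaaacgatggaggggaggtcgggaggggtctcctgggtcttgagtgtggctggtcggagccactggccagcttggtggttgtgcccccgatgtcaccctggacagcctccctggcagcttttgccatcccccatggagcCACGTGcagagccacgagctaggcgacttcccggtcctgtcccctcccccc
RefSeq promoters, of 250 bases before and 50 after each start, were matched by symbol for 35 of the 54 reversed genes. An E-box stood in a promoter of 8 of these 35 (22.9%), Aqp8, Cipc, Coq10b, Fkbp6, Lasp1, Pard6b, Tjp3 and Tspan4, against 1211 of 10408 tested genes with a promoter (11.6%). The share was 12.8% among faded genes (18 of 141), 16.1% among genes that swung past 0, 16.7% among late-only genes, 19.8% where neither effect was called and 31.2% in the core clock (5 of 16). A D-box stood in 1 of the 35 (Coq10b, 2.86%), against 0.797% of tested genes. A match says only that the letters are present in this window.

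Usp2, a deubiquitinating enzyme known as a clock output gene in many tissues (chr9:44067021-44095627, protein coding), had the largest interaction of the 6 reversed genes followed by mouse. Late, it stood at 16.5, 21.1 and 25.9 CPM (lowest, median, highest of 6) in disrupted mice, against 8.93, 11.2 and 13.7 CPM in normal mice. Early, it stood at 1.97, 2.18 and 3.08 CPM in disrupted mice, against 7.55, 14.7 and 15.3 CPM in normal mice. Disrupted mice were thus all above the normal mice late and all below them early. The difference was log2 0.89 ± 0.15 (SE) late and -2.45 ± 0.17 early, and the interaction 3.34 ± 0.23 (adjusted p = 2.46e-08).

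Coq10b (chr1:55052770-55072702, protein coding) encodes a mitochondrial protein that binds coenzyme Q. Late, its level was 6.14, 6.49 and 9.30 CPM in disrupted mice, against 3.73, 4.26 and 5.71 CPM in normal mice. Early, the levels were 1.72, 2.33 and 2.65 CPM in disrupted mice and 3.83, 5.24 and 5.88 CPM in normal mice. The groups did not overlap at either time, and their order turned round. The interaction was log2 1.82 ± 0.16 (adjusted p = 2.47e-08), made of 0.67 ± 0.11 late and -1.15 ± 0.12 early.

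Azin1 (chr15:38487427-38519266, protein coding), the antizyme inhibitor that frees ornithine decarboxylase for polyamine synthesis, was also higher in disrupted mice late and lower early, and was more abundant. Its late against early change was log2 0.74 ± 0.07 in disrupted and -0.34 ± 0.07 in normal mice, called in both. It had 50, 56.1 and 62.5 CPM in late disrupted mice, against 38.5, 45.3 and 47.4 CPM in late normal mice. In early mice it had 28.1, 32.3 and 42.8 CPM under disruption and 44.5, 55.8 and 68.0 CPM under the normal rhythm. No disrupted mouse fell among the normal mice at either time. The interaction was log2 1.08 ± 0.10 (adjusted p = 6.22e-08). Ccbe1 (chr18:66045302-66302741, protein coding), a secreted factor needed for lymphatic vessel growth, stood at 8.61, 10.2 and 12.0 CPM in late disrupted mice, against 5.65, 5.91 and 6.68 CPM in late normal mice. Its early values were 3.57, 4.24 and 5.10 CPM in disrupted and 5.16, 6.68 and 7.26 CPM in normal mice, again without overlap. For this gene the late difference (log2 0.78 ± 0.09) was at least as large in size as the early one (-0.62 ± 0.10), with an interaction of 1.4 ± 0.14 (adjusted p = 1.49e-07).

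Rassf3 and Aqp8 went the other way, lower in disrupted mice late and higher early. Rassf3 (chr10:121410350-121476347, protein coding), a member of the Ras association domain family, had 7.77, 8.68 and 10.1 CPM in late disrupted mice, against 11.0, 12.3 and 13.4 CPM in late normal mice. Early, it had 14.8, 16.6 and 18.8 CPM in disrupted mice, against 9.33, 10.3 and 11.1 CPM in normal mice. Its interaction of log2 -1.18 ± 0.09 had the smallest adjusted p of the reversed genes (5.84e-09). Aqp8 (chr7:123462291-123468004, protein coding) encodes a water channel that acinar cells carry on their apical membrane. Its late levels were 2.25, 2.68 and 3.27 CPM in disrupted mice, against 3.54, 4.37 and 6.84 CPM in normal mice. Its early levels were 7.08, 9.77 and 13.5 CPM in disrupted mice, against 4.71, 4.86 and 7.02 CPM in normal mice. Neither gene showed an overlap of the groups at either time, although for Aqp8 the lowest early disrupted mouse (7.08 CPM) was close to the highest early normal mouse (7.02 CPM). The interaction of Aqp8 was log2 -1.70 ± 0.16 (adjusted p = 1.49e-07).

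**Figure D2:**
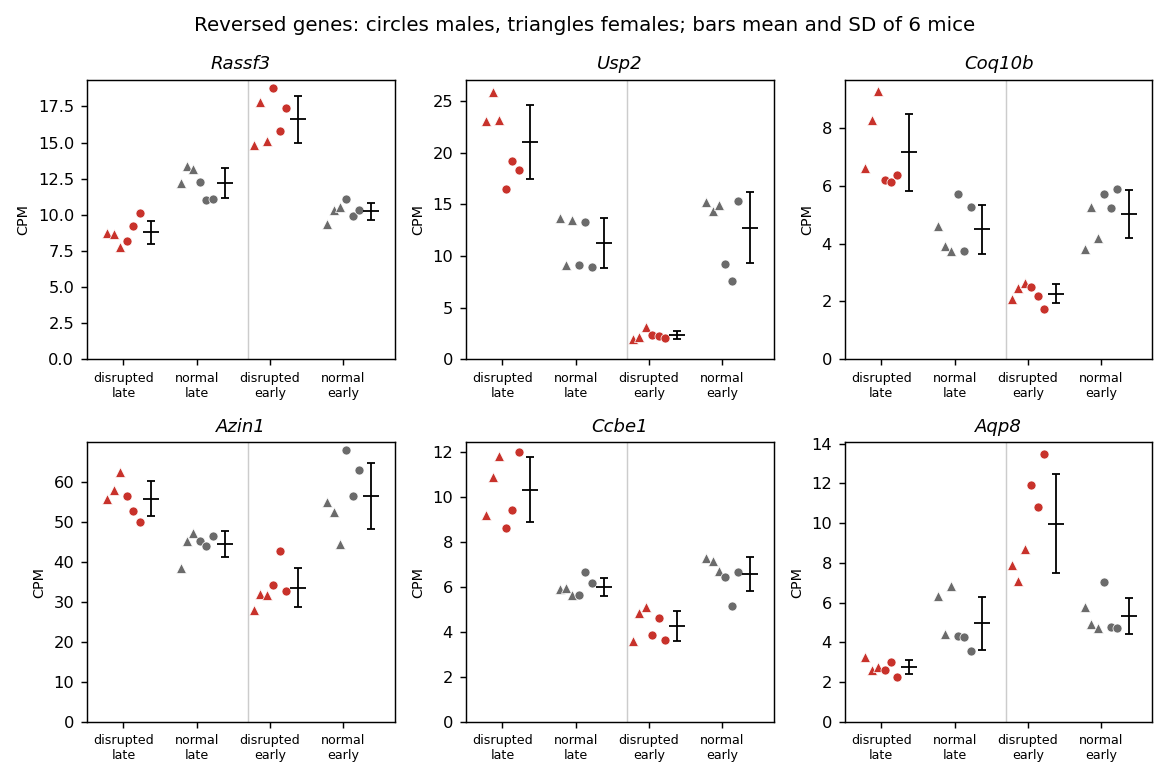
Level of 6 reversed genes in each mouse (vertical axis, CPM from 0; columns, disrupted and normal mice at the late and the early time; circles, males; triangles, females), with the mean and SD of 6 mice beside each column. In every panel the disrupted mice lie on one side of the normal mice late and on the other side early, for instance at 16.5 to 25.9 CPM above 8.93 to 13.7 CPM late for Usp2.

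The other named reversed genes repeated both courses. Timp3, a tissue inhibitor of metalloproteinases, was higher in disrupted mice late (log2 0.41 ± 0.08) and lower early (-0.63 ± 0.08). Its exons overlap those of Syn3 on the opposite strand, and no strand setting is given in the sources used here. The remaining 5 were lower in disrupted mice late and higher early. Ranbp3l, a Ran-binding protein, had a median of 0.644 CPM in late disrupted mice against 1.7 CPM in late normal mice, and of 3.38 CPM in early disrupted mice against 0.978 CPM in early normal mice, an interaction of log2 -3.03 ± 0.29. Ypel2 had an interaction of log2 -2.41 ± 0.22. Dtx1, a ubiquitin ligase of the Notch pathway, had one of -2.09 ± 0.20, Ctnnbip1, an inhibitor of beta-catenin binding to TCF, one of -1.19 ± 0.13, and Leprotl1 one of -1.0 ± 0.10. The late against early change of Ypel2 was log2 -1.477 ± 0.153 in disrupted and 0.929 ± 0.155 in normal mice, called in both. That of Dtx1 was log2 -1.315 ± 0.137 and 0.772 ± 0.143, also called in both. The Dtx1 mean was 4.59 CPM in late disrupted mice, not below the 4.32 CPM of early normal mice. Ypel2, Dtx1, Ctnnbip1 and Leprotl1 had no overlap between the groups at either time, whereas Ranbp3l and Timp3 overlapped late. As for Timp3, exons of Usp2, Coq10b, Azin1, Ccbe1 and Ctnnbip1 overlap those of genes annotated on the opposite strand. Among other genes named in the text, the same holds for Akap7, Rhobtb1, Ppp1r1b, Plagl1, Dusp1, Dnajb9, Pdia3, Hmgcs1 and Cdkn1a.

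Among reversed genes outside the naming rule, some were picked for their function or position after their values were seen. Nr1h4, the bile acid receptor FXR, differed by log2 -1.54 ± 0.36 late and 1.76 ± 0.34 early. Lpl, lipoprotein lipase, differed by log2 -0.44 ± 0.08 late and 0.49 ± 0.08 early, and was the 1 called gene of 14 tested in the adipocyte list. P2rx1, an ATP-gated ion channel, differed by log2 -0.43 ± 0.09 late and 0.53 ± 0.09 early. Cipc, a repressor that binds CLOCK, moved the other way, at log2 0.36 ± 0.07 late and -0.28 ± 0.08 early.

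Sphk2, a sphingosine kinase, and Thra, a thyroid hormone receptor, share exon sequence on opposite strands with the core clock genes Dbp and Nr1d1. Sphk2 differed by log2 -0.48 ± 0.07 late and 0.33 ± 0.07 early, against 1.14 ± 0.21 late and -5.41 ± 0.29 early for Dbp. Thra differed by log2 -0.47 ± 0.08 late and 0.52 ± 0.08 early, against -0.21 ± 0.28 late and -1.86 ± 0.31 early for Nr1d1. Sphk2 was opposite in sign to its partner at both times and Thra at the early time. Reads of such overlapping pairs cannot be told apart without strand.

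The 54 reversed genes lay on 14 chromosomes, and 2 pairs of them were less than 100000 bases apart. Gm45819, annotated as a transcript that awaits experimental evidence, at chr7:110119990-110121740, ends 305 bases before Wee1 (chr7:110122046-110143286) on the same strand. Wee1, the kinase that holds back entry into mitosis and a known clock output gene, differed by log2 0.40 ± 0.09 late and -0.35 ± 0.09 early, and Gm45819 by 1.38 ± 0.33 late and -1.72 ± 0.34 early. Hsbp1l1 and Pqlc1 neighbour each other on chromosome 18 with a gap of 6189 bases, and both were lower in disrupted mice late and higher early, with interactions of log2 -0.92 ± 0.14 and -1.0 ± 0.12.

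Fading was seen in more genes and was smaller in size. The median size over the 193 faded genes was log2 0.15 late and 0.50 early. In 178 of the 193 the late difference had the opposite sign and was not called. The class requires an interaction call, which favours a late value past 0, so nothing is read from that count. Of the 193, 107 had been lower in disrupted mice early and 86 higher. The late against early change was called within disrupted mice in 171 of them and within normal mice in 7, beside 13.9% and 0.843% of all genes, and as for the reversed genes nothing is read from these counts. The groups did not overlap early in 106 of the 193 and late in 0, against 2.31% and 1.04% of all genes. The class was chosen on these same effects, so nothing is read from these counts either.

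Arl5b, an ARF-like GTPase (chr2:15049395-15082456, protein coding), had 22.7, 30.4 and 35.9 CPM in late disrupted mice, against 16.7, 21.8 and 41.2 CPM in late normal mice. Early, it had 5.49, 7.26 and 10.4 CPM in disrupted mice, against 15.4, 22 and 25.7 CPM in normal mice. Its early groups were apart and its late groups overlapped, with an interaction of log2 1.72 ± 0.22 (adjusted p = 6.54e-05). Pfkfb3, an enzyme that makes an activator of glycolysis (chr2:11471433-11554077, protein coding), had 6.69, 7.74 and 11.5 CPM in late disrupted mice, against 4.61, 5.94 and 7.24 CPM in late normal mice. Its early values were 1.86, 2.70 and 6.19 CPM in disrupted mice, against 3.38, 6.80 and 8.94 CPM in normal mice. The groups overlapped at both times, 1 early disrupted female standing well above the other early disrupted mice, and the interaction was log2 1.66 ± 0.33 (adjusted p = 0.00566). Ppp1r1b, the protein phosphatase inhibitor DARPP-32 (chr11:98348404-98357796, protein coding), had 9.32, 14.5 and 25.2 CPM in late disrupted mice, against 5.35, 12.8 and 17.8 CPM in late normal mice. Its early values were 3.54, 5.13 and 6.43 CPM in disrupted mice, against 6.03, 11.2 and 15.1 CPM in normal mice. The late groups of Ppp1r1b overlapped widely and the early groups over 1 mouse each, with an interaction of log2 1.58 ± 0.27 (adjusted p = 0.00135).

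Herpud1, a membrane protein of ER-associated degradation, was the most abundant of the named faded genes. Its median was 309 CPM in late disrupted mice and 272 CPM in late normal mice, and 120 CPM in early disrupted mice and 220 CPM in early normal mice. The interaction was log2 1.17 ± 0.15 (adjusted p = 6e-05), estimated at 0.70 in males and 1.64 in females. Map3k6, a stress-activated protein kinase, had an interaction of log2 1.34 ± 0.28 (adjusted p = 0.00359).

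The faded genes that had been higher in disrupted mice early included Leo1, a subunit of the PAF1 transcription elongation complex (chr9:75441524-75466432, protein coding). It stood at 0.506, 0.588 and 1.12 CPM in late disrupted mice, against 0.538, 1.03 and 1.36 CPM in late normal mice. Early, it stood at 1.72, 2.21 and 3.39 CPM in disrupted mice, against 0.551, 0.896 and 1.22 CPM in normal mice. The early groups were apart, the late ones overlapped, and the interaction was log2 -1.90 ± 0.33 (adjusted p = 0.000742). Rhobtb1, an atypical small GTPase (chr10:69151434-69291791, protein coding), had 3.14, 4.19 and 4.87 CPM in late disrupted mice, against 2.75, 4.43 and 5.39 CPM in late normal mice. Its early levels were 6.30, 7.77 and 11.2 CPM in disrupted mice, against 2.52, 2.71 and 3.15 CPM in normal mice. The late difference was log2 -0.01 ± 0.17, so the fading of Rhobtb1 was complete within its error, and the interaction was -1.62 ± 0.23 (adjusted p = 0.00018).

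Dlg2, a scaffold protein of the membrane-associated guanylate kinase family (chr7:90476672-92449247, protein coding), had 0.923, 1.08 and 1.90 CPM in late disrupted mice, against 1.07, 1.62 and 2.13 CPM in late normal mice. Early, it had 1.76, 2.43 and 3.36 CPM in disrupted mice, against 0.845, 1.11 and 1.34 CPM in normal mice. The early groups did not overlap, and the interaction was log2 -1.55 ± 0.24 (adjusted p = 0.000142). Akap7, an anchoring protein for protein kinase A (chr10:25169090-25307870, protein coding), had 1.72, 1.85 and 2.10 CPM in late disrupted mice, against 1.98, 2.2 and 2.96 CPM in late normal mice. Its early levels were 3.87, 4.35 and 5.64 CPM in disrupted mice, against 1.82, 2.08 and 2.51 CPM in normal mice. The early disrupted mice stood above all other mice of the series, and the interaction was log2 -1.41 ± 0.16 (adjusted p = 1.69e-06). Slco4a1, an organic anion transporter, had an interaction of log2 -1.34 ± 0.23 (adjusted p = 0.000577).

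**Figure D3:**
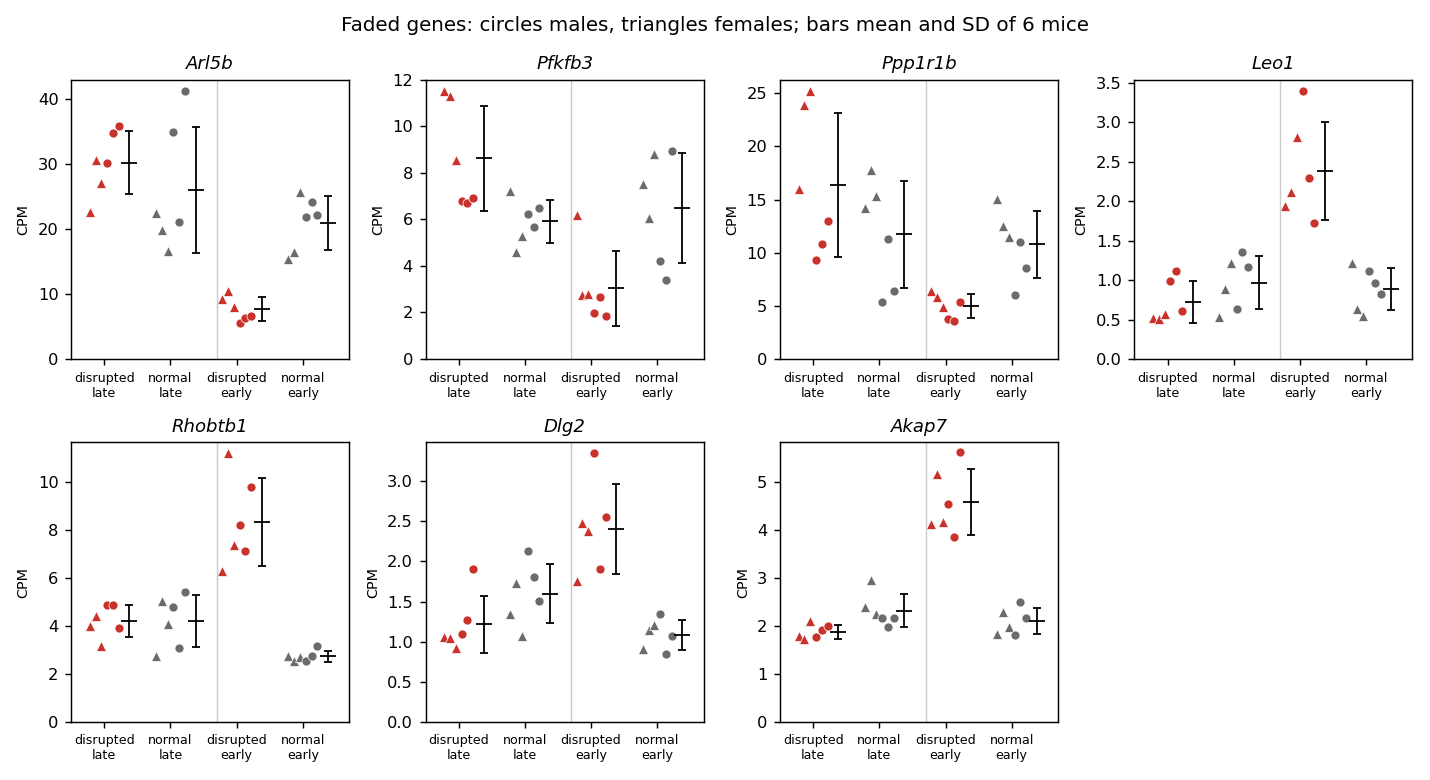
Level of 7 faded genes in each mouse (vertical axis, CPM from 0; columns, disrupted and normal mice at the late and the early time; circles, males; triangles, females), with the mean and SD of 6 mice beside each column. In every panel the late disrupted and normal mice overlap, whereas the early disrupted mice stand below (Arl5b, Pfkfb3, Ppp1r1b) or above (Leo1, Rhobtb1, Dlg2, Akap7) the early normal mice, with overlap early for Pfkfb3 and Ppp1r1b.

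Genes that swung past 0 without a late call had a median size of log2 0.26 late and 0.36 early. The 6 named ones were all on the lower side in disrupted mice late and higher early. Kit, the stem cell factor receptor, had a median of 6.07 CPM in late disrupted mice against 8.33 CPM in late normal mice, and of 8.82 CPM in early disrupted mice against 5.41 CPM in early normal mice. Its interaction was log2 -1.14 ± 0.17 (adjusted p = 0.00014). The late against early change of Kit was log2 -0.55 ± 0.12 in disrupted and 0.59 ± 0.12 in normal mice, called in both. Slc22a15, a solute carrier, had an interaction of -1.14 ± 0.17, Zbtb46, a zinc finger transcription factor, of -1.10 ± 0.17, Inpp1, an inositol polyphosphate phosphatase, of -0.94 ± 0.13, Cmtm6, a membrane protein that stabilises PD-L1, of -0.84 ± 0.12, and Plagl1, an imprinted zinc finger factor, of -0.69 ± 0.11. Their late adjusted p-values lay between 0.0522 (Plagl1) and 0.0774 (Kit), just outside the threshold that separates them from the reversed genes.

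In the 78 genes called at the late time alone, the median size was log2 0.46 late and 0.16 early. Cys1, a cilium-associated protein (chr12:24665833-24681813, protein coding), had 1.75, 2.09 and 2.69 CPM in late disrupted mice, against 1.09, 1.19 and 1.67 CPM in late normal mice. Early it had 1.09, 1.18 and 1.55 CPM in disrupted mice, against 1.37, 1.5 and 2.11 CPM in normal mice. The late groups were apart and the early ones overlapped, with an interaction of log2 1.09 ± 0.19 (adjusted p = 0.000759). Podn, a matrix proteoglycan (chr4:108014791-108096445, protein coding), had 2.60, 3.32 and 3.73 CPM in late disrupted mice, against 1.47, 2.05 and 2.37 CPM in late normal mice. Its early levels were 1.69, 2.10 and 3.02 CPM in disrupted mice, against 1.84, 2.74 and 3.29 CPM in normal mice. Its interaction was log2 0.97 ± 0.19 (adjusted p = 0.00183), and that of Gsta3, a glutathione transferase, 0.91 ± 0.16 (adjusted p = 0.000757).

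S1pr2, a receptor for sphingosine 1-phosphate (chr9:20962361-20976781, protein coding), had 0.957, 1.26 and 1.65 CPM in late disrupted mice, against 1.76, 2.37 and 2.65 CPM in late normal mice. Early it had 1.84, 2.13 and 2.52 CPM in disrupted mice, against 1.36, 1.67 and 2.09 CPM in normal mice. The late groups did not overlap, and the interaction was log2 -1.16 ± 0.19 (adjusted p = 0.000305). Ccn1, a matrix protein and immediate early gene (chr3:145646976-145649981, protein coding), had 0.115, 0.347 and 0.519 CPM in late disrupted mice, against 0.341, 1.09 and 5.44 CPM in late normal mice. Its early levels were 0.532, 1.08 and 1.24 CPM in disrupted mice, against 0.482, 0.721 and 1.87 CPM in normal mice. The interaction was log2 -1.99 ± 0.50 (adjusted p = 0.0228), and the adjusted p was 0.0532 without late disrupted female replicate 3.

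Ccn1 belongs to the immediate early list, genes switched on within minutes by many stimuli. Of its 28 genes tested, 0 were called upward and 4 downward, against 2.31% and 2.46% of all genes. Late, 9 of the 28 were called lower in disrupted mice, against 0.779% of all genes. Early, 2 of the 28 were called lower, against 2.47% of all genes. The median interaction over the list was log2 -0.75, against 0.00 over all genes, and -1.70 in males against 0.06 in females. Fos, a subunit of the AP-1 transcription factor, had 7.99, 1.19 and 3.02 CPM in the 3 late normal males and between 0.179 and 0.237 CPM in the 3 late normal females. Late disrupted mice had 0 to 0.312 CPM, early disrupted mice 0.319 to 0.655 CPM and early normal mice 0.0306 to 0.604 CPM. Dusp1, a MAP kinase phosphatase, had 12.5, 6.37 and 11.1 CPM in the late normal males, against at most 3.83 CPM in any other mouse of the series. The interactions were log2 -3.94 ± 0.84 for Fos (adjusted p = 0.0084) and -1.02 ± 0.23 for Dusp1 (adjusted p = 0.00896). With sex as a single additive term the adjusted p was 0.173 for Dusp1, 0.0575 for Fos and 0.0937 for Ccn1. With limma-voom it was 0.135 for Fos and 0.0843 for Ccn1, and with no filter on low counts 0.064 for Ccn1. The 3 late normal males stood above every other mouse for Fos and Dusp1, and the list summed to 695 CPM in 1 of them, against 127 CPM at most in early normal mice.

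The gene lists below were described by their called members and medians, beside 4.77% of all genes called and a median interaction of 0.00. The lists were chosen with earlier results of these data known, so nothing is read from these shares. Upward and downward give the sign of the interaction, and do not say in which condition the level changed. Of 20 clock output genes outside the core clock, 5 were called upward and 3 downward (40%), with a median of log2 0.01. Leo1 was among the downward ones, and Por, Klf10 and Dtx4 were called too. Usp2, Coq10b, Tspan4, Wee1 and Leo1 are also among the reversed or faded genes above, so the list is not separate from those classes. The upward ones included Usp2, Coq10b, Wee1 and Tspan4, a tetraspanin at a median of 3.97 CPM in late disrupted mice against 2.49 CPM in late normal mice, and of 1.99 CPM in early disrupted mice against 3.38 CPM in early normal mice. Tspan4 had an interaction of log2 1.37 ± 0.17 (adjusted p = 4.51e-06), and its exons overlap those of Chid1 on the opposite strand. Of 16 glucocorticoid response genes, 5 moved upward, the core clock gene Per1 among them, and 2 downward, with a median of log2 0.47 over both sexes, -0.32 in males and 0.99 in females. The list summed to between 302 and 576 CPM in late disrupted mice, against 611, 622 and 940 CPM in the 3 late normal males, the mice that also stood highest for Fos and Dusp1, and 422, 517 and 505 CPM in the late normal females. It summed to between 223 and 393 CPM in early disrupted and 323 and 554 CPM in early normal mice. The late normal males were thus above every other mouse, and the part of this in the list's interaction was not tested. Klf9, a Krüppel-like factor, had an interaction of log2 0.76 ± 0.10 (adjusted p = 2.94e-05), Klf15, a regulator of amino acid and glucose metabolism, 0.79 ± 0.14 (adjusted p = 0.00182), and Tsc22d3, the glucocorticoid-induced leucine zipper, 0.72 ± 0.13 (adjusted p = 0.00062). All 3 were lower in disrupted mice early, and their late differences were log2 0.11 ± 0.07, 0.03 ± 0.10 and -0.03 ± 0.09. By sex, the late difference was log2 -0.23 in males and 0.29 in females for Klf15, and -0.23 and 0.17 for Tsc22d3. For Klf9 it was 0.11 in each sex. The interaction of Klf15 was log2 0.43 in males and 1.15 in females.

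A few genes of protein folding in the endoplasmic reticulum had an upward interaction. Of 24 unfolded protein response genes 4 were called, all upward, with a median of log2 0.34. Hyou1, an ER chaperone, had a median of 113 CPM in late disrupted mice against 99.5 CPM in late normal mice, and of 82.7 CPM in early disrupted mice against 111 CPM in early normal mice, an interaction of log2 0.61 ± 0.13 (adjusted p = 0.00681). Dnajb9, an ER co-chaperone, had one of 0.68 ± 0.17 (adjusted p = 0.0216), a call lost with no filter on low counts (adjusted p = 0.0546) and with an additive sex term (0.179). Pdia3, a disulfide isomerase, had one of 0.39 ± 0.10 (adjusted p = 0.0279), a call lost when any 1 of 9 mice was left out, with an additive sex term (0.089) and without the 2 lymphocyte-rich females (late and early disrupted female replicate 1) together (0.0511). Of 17 genes of ER-associated degradation 2 were called upward, Herpud1 and Ube2g2, a ubiquitin-conjugating enzyme whose call (log2 0.43 ± 0.13, adjusted p = 0.0493) was lost without any 1 of 17 mice, with an additive sex term (0.0756), with upper quartile factors (0.0555), with the replicate block (0.0653) and without those 2 females (0.0845).

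Of 21 genes of the amino acid response and tRNA charging, 3 moved upward and 0 downward, with a median of log2 0.32. Sars, the seryl-tRNA synthetase, had an interaction of log2 0.33 ± 0.08 (adjusted p = 0.0184). The calls of Mthfd2, a mitochondrial folate enzyme (0.58 ± 0.15, adjusted p = 0.0267), and Slc7a5, a large amino acid transporter (1.16 ± 0.29, adjusted p = 0.0303), were lost without any 1 of 5 and of 11 mice. Mthfd2 also lost its call with no filter (0.0651) and with lymphocyte and adipocyte scores as covariates (0.0546), and Slc7a5 without the 2 lymphocyte-rich females (0.076). Of 18 heat shock genes 3 were called, all upward. Bag3, an HSP70 co-chaperone, had an interaction of log2 0.50 ± 0.10 (adjusted p = 0.0045). Chordc1, which binds HSP90, had one of 0.62 ± 0.14 (adjusted p = 0.00644). Stip1, which links HSP70 and HSP90, had one of 0.44 ± 0.11 (adjusted p = 0.0161, but 0.0582 with an additive sex term). By sex, the interaction of Stip1 was log2 0.76 ± 0.15 in males and 0.12 ± 0.15 in females. It was log2 0.872 and 0.365 for Chordc1, and 0.51 and 0.49 for Bag3. Of 17 antioxidant genes 2 moved upward. Prdx6, a peroxiredoxin, was reversed, with a median of 21.3 CPM in late disrupted mice against 16.5 CPM in late normal mice, and of 16 CPM in early disrupted mice against 21.3 CPM in early normal mice. Gclc, the catalytic subunit of glutathione synthesis, had an interaction of log2 1.26 ± 0.25 (adjusted p = 0.00555).

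The called genes of sterol and fatty acid synthesis were all downward. Of 23 cholesterol synthesis genes, 0 were called upward and 5 downward, with a median of log2 -0.41. Hmgcs1, the HMG-CoA synthase of the pathway, had a median of 4.85 CPM in late disrupted mice against 5.09 CPM in late normal mice, and of 5.96 CPM in early disrupted mice against 4.33 CPM in early normal mice. Its interaction was log2 -0.52 ± 0.12 (adjusted p = 0.00809), and that of Dhcr7, a sterol reductase, was -0.68 ± 0.15 (adjusted p = 0.00647). Of 17 fatty acid synthesis genes, 0 were called upward and 2 downward, with a median of log2 -0.49. These were Elovl5, an elongase (-0.61 ± 0.16, adjusted p = 0.0264, lost without any 1 of 7 mice), and Scd2, a desaturase (-1.24 ± 0.32, adjusted p = 0.0312, lost without any 1 of 10 mice). The adipocyte marker list summed to between 34.9 and 96.7 CPM in late disrupted, 43.3 and 89.6 CPM in late normal, 57.8 and 176 CPM in early disrupted and 54.2 and 112 CPM in early normal mice. With lymphocyte and adipocyte scores as covariates, Hmgcs1, Dhcr7, Elovl5 and Scd2 kept their calls. Without the 2 lymphocyte-rich females together Elovl5 lost its call (log2 -0.59, adjusted p = 0.0552), and with the replicate block the adjusted p of Scd2 was 0.0502.

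Of 17 p53 target genes 1 moved upward and 3 downward. Cdkn1a, the cyclin-dependent kinase inhibitor p21, had 1.07, 1.26 and 2.00 CPM in late disrupted mice, against 1.41, 2.84 and 7.42 CPM in late normal mice. Early it had 3.17, 7.08 and 10.4 CPM in disrupted mice, against 1.29, 2.10 and 2.98 CPM in normal mice. The early groups did not overlap, and the interaction was log2 -3.10 ± 0.57 (adjusted p = 0.00342). By sex, the late difference of Cdkn1a was log2 -2.12 ± 0.59 in males and -0.66 ± 0.60 in females. Fitted alone, neither sex kept the call (adjusted p = 0.0729 in males and 0.23 in females). The p53 list summed to 153 to 343 CPM in late normal and 152 to 182 CPM in late disrupted mice. By mean log2 level it stood highest in late normal male replicate 3, and the part of this in the interaction was not tested. Eda2r, a receptor of the TNF receptor family (-1.47 ± 0.39, adjusted p = 0.024), and Bbc3, the pro-apoptotic protein PUMA (-1.12 ± 0.31, adjusted p = 0.0313), lost their calls without any 1 of 3 and of 12 mice, and with an additive sex term (0.0547 and 0.0575). In the Notch and Id list, Id1 moved upward (log2 1.24 ± 0.28, adjusted p = 0.00805) and Heyl downward (-0.59 ± 0.14, adjusted p = 0.0124), among 15 genes tested.

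Identity genes of the pancreas were set beside 4.77% of all genes called for the interaction. Lists of this length hold few calls at that share, so nothing is read from a count of 0. Of the lists in this paragraph only the ductal one held calls (13.3%). None of 35 acinar enzyme genes, of 10 acinar transcription factors or of 22 islet genes was called for the interaction, and their medians were log2 -0.02, -0.01 and 0.19. Of 15 ductal genes 2 were called downward, Krt19, a ductal keratin (-0.57 ± 0.15, adjusted p = 0.0241, lost without any 1 of 4 mice), and Sox9, a ductal transcription factor (-0.62 ± 0.18, adjusted p = 0.0455, lost without any 1 of 16 mice, with an additive sex term at 0.115, with limma-voom at 0.0524 and with the replicate block at 0.0521). None of the tested genes of the lists for stellate cells and fibroblasts (18), endothelium (12), macrophages (14), MHC class II (8) and red blood cells (6) was called. None of 34 proliferation genes was called, at a median of log2 -0.66. None of 15 hepatocyte protein genes was called, at a median of log2 -1.86, with -3.16 in males and -0.57 in females. Of these 15, 6 were called higher in disrupted mice early, against 2.09% of all genes.

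**Figure D4:**
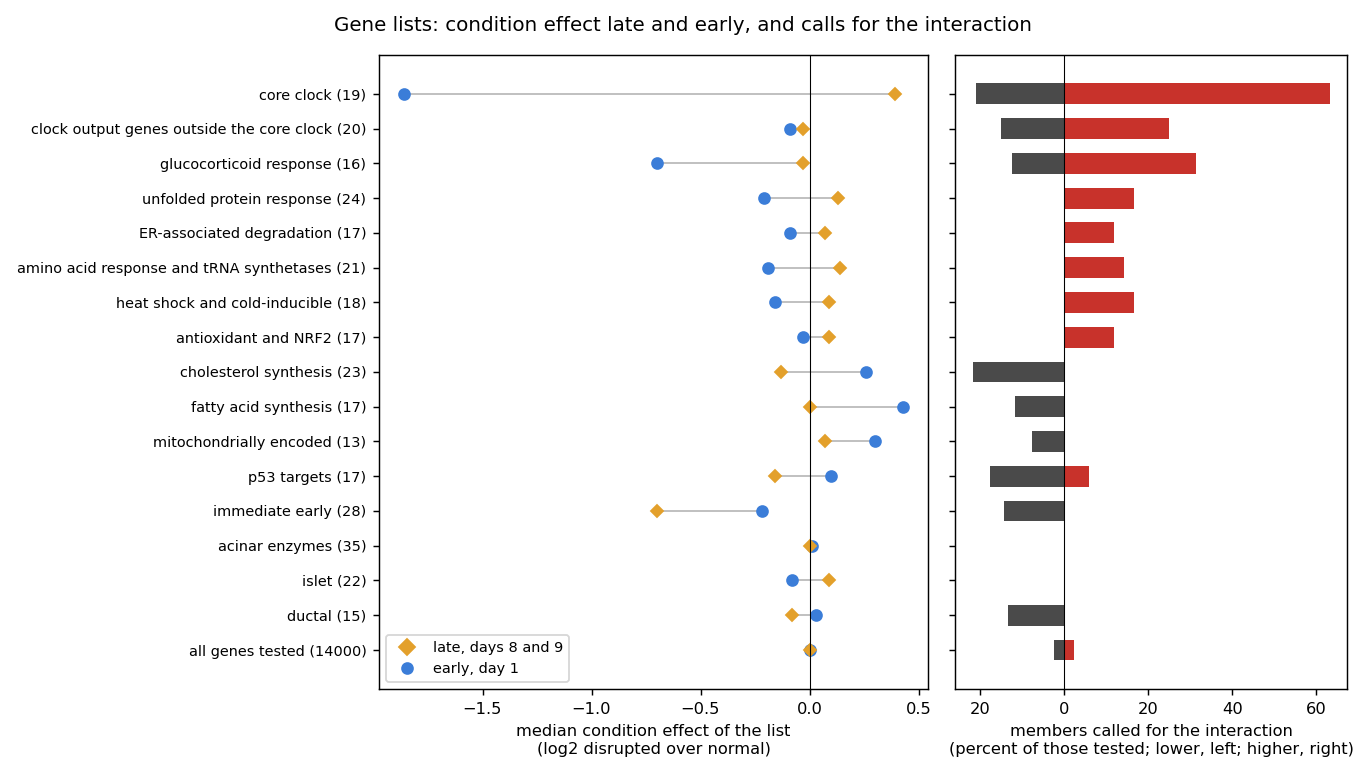
Median condition effect of 16 gene lists and of all genes (left, log2 disrupted over normal; diamonds, late; circles, early; number of genes tested in brackets) and the percentage of each list called for the interaction (right; grey bars to the left, lower; red bars to the right, higher). The acinar enzyme list lies at 0 at both times with 0 calls, whereas the glucocorticoid list moves to a median near 0 late and cholesterol synthesis crosses 0.

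Males and females, which are separate mice, can be set side by side. Estimated within each sex, the interaction outside the core clock was called for 187 genes in males and 269 in females (over all genes 1.44% and 2.04%), 83 of them in both, which is 44.4% of the male and 30.9% of the female calls. Of the 187 male calls 171 had the same sign in females, and of the 269 female calls 244 had the same sign in males, against 58.9% of all genes. All 54 reversed genes had opposite late and early differences in each sex, but the classes were chosen on the mean of these male and female values, and 648 of the 652 called genes had the same interaction sign in both, so nothing is read from this. Among faded genes the late difference had turned to the opposite sign in 129 of 193 in males and in 182 of 193 in females. The faded class rests on the interaction call too, so nothing is read from these counts. The test of the difference between the sexes called 0 of 14000 genes, with 925 at an unadjusted p under 0.05.

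**Figure D5:**
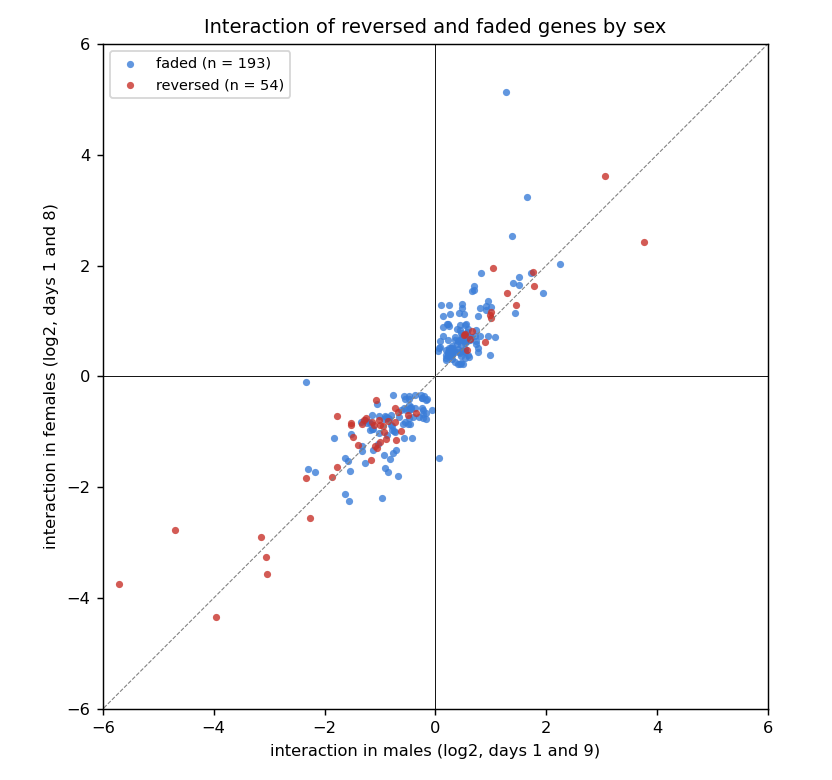
Interaction in females (vertical axis, log2, days 8 and 1) against interaction in males (horizontal axis, log2, days 9 and 1) for the 54 reversed and 193 faded genes, 1 point per gene, with a dashed line of equality. All 54 reversed genes and 192 of the 193 faded genes have the same sign in both sexes, on whose mean they were chosen.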

How the data were processed

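RNA-seq of whole pancreas from 24 mice was analysed from the table of RSEM expected counts per gene that the authors deposited, without normalization. An expected count shares reads that fit several genes among them. Per the submitters' processing notes, bcl2fastq 2.20, STAR 2.5.3a, RSEM and edgeR 3.28.0 were used with build GRCm38.p5. The annotation and the strand setting are not known from the labels. Rounding to integers altered 7.97% of the deposited values, none by more than 0.5. The filter on low counts was filterByExpr of edgeR with the 8 groups, and libraries were scaled by TMM (factors 0.943 to 1.12). CPM are TMM-scaled. The interaction was tested with edgeR 4.0.16 in R 4.3.3 by the quasi-likelihood test over all 14000 genes and 24 mice, 1 mean per group, with Benjamini-Hochberg adjustment and a threshold of 0.05. The fit was tested on simulated counts. Fold changes are log2, and errors after ± are standard errors of the fitted difference.

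The members, classes and gene lists were chosen with earlier results of these data known. Named genes were called outside the core clock, with a symbol, at least 1 CPM on average and the same sign in both sexes: 12 reversed and 6 past 0 by p, 6 faded in each direction and 3 late-only in each direction by size, and up to 3 of each list with 2 calls or more. Some genes that meet this rule are not reported here. Gene positions are from GENCODE on GRCm38, counted from 1. Alternatives were other scalings and filters, DESeq2 1.42.0, limma-voom 3.58.1, an additive sex term, lymphocyte and adipocyte covariates, single sexes, a replicate block, and leaving out each mouse. What the numbers 1 to 3 of the mice mark is not given in the labels, and the main fit did not pair mice by them.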

Additional observations from a re-analysis of the deposited data

Results flagged for a closer look

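The condition effect differed between the late and the early time in 668 genes by the interaction test. Among 72 sets of 6 mice examined for the genes given by mouse, 4 held a mouse that stood apart from the other 5 by Dixon's criterion, which chance gives in about 1 set in 20. Azin1 was at 38.5 CPM in late normal female replicate 1, against 44.1 to 47.4 CPM in the other late normal mice. Ccbe1 was at 5.16 CPM in early normal male replicate 2, against 6.45 to 7.26 CPM in the other early normal mice. Pfkfb3 was at 6.19 CPM in early disrupted female replicate 1, the mouse with the highest lymphocyte markers, against 1.86 to 2.78 CPM in the other early disrupted mice. S1pr2 was at 1.76 CPM in late normal male replicate 1, against 2.31 to 2.65 CPM in the other late normal mice. The interaction calls of these 4 genes were kept when any 1 mouse was left out.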

How the results depend on the processing

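The number of genes called for the interaction (668) stayed between 521 and 756 under other scalings, filters, tests, covariates and an additive sex term, and was 187 in males and 250 in females fitted alone. Leaving out 1 mouse gave 525 to 717 interaction, 71 to 261 late and 434 to 667 early calls. It gave 26 to 64 reversed, 147 to 216 faded, 62 to 141 past 0, 30 to 107 late-only and 0 to 3 sex-difference calls. All 54 reversed genes kept their interaction call in each of those 24 fits, while the class itself, which needs a late call, fell to 26 genes without late disrupted female replicate 3, 33 without late disrupted male replicate 1, and 35 without late normal male replicate 3 or late normal female replicate 2. The late calls without these 4 mice were 71, 96, 114 and 114, and 122 without late disrupted male replicate 3, and late-only genes were 30, 40, 50, 47 and 49. Genes past 0 were 71 without early normal male replicate 1, 63 without early normal female replicate 2, and 69 and 62 without early disrupted male replicates 1 and 3. With lymphocyte and adipocyte scores as covariates, early calls were 281, and reversed, faded and past-0 genes 32, 122 and 41. All 54 reversed genes kept their interaction call there too. In males alone late calls were 42 and early calls 164, with 9 reversed, 38 faded, 29 past 0 and 18 late-only. In females alone late calls were 23 and early calls 172, with 8 reversed, 78 faded, 31 past 0 and 10 late-only. Late calls were 333 with no filter, 123 with an additive sex term and 311 without the 2 lymphocyte-rich females, and late-only genes 121 with no filter and 124 without those females. The sex difference (0 calls by edgeR, 925 unadjusted) had 1 call with upper quartile factors, 8 with no filter, 1 with a filter at 1 CPM, 5 with DESeq2, 0 with limma-voom and 2 with the covariates. What the numbers 1 to 3 mark is not given in the labels, and the main fit did not pair mice by them. Over 84 same-numbered pairs the correlation of deviations ran between -0.21 and 0.40, median 0.01, with 15 pairs over 0.1. Of 24 mice, 12 correlated best with their own number. With the replicate block 671 genes were called, and Ube2g2, Scd2 and Sox9 missed the threshold. For the 65 named genes, 110 of 1560 calls were lost over the fits without 1 mouse and 89 of 776 under the other settings, and 0 changed sign.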
